A study of Mus musculus with 2 samples.

Results

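The genes described here encode 10 hormones and growth factors that adipocytes can release: Adipoq, Lep, Retn, Cfd, Fgf21, Vegfa, Bmp8b, Nrg4, Igf1 and Gdf15. They were listed by name, with earlier results of these data known, and the question was which of them had a site bound by the thyroid hormone receptor (TR) in brown fat, and where. Each was compared with 21938 protein-coding genes, and its sites were taken from a list of 5107 TR binding sites (TRBS). Sites were counted for a gene if the summit, the position of the highest pileup of ChIP fragments, lay within 100 kb of the transcription start site (TSS) of that gene, and sites within 30 kb were described first.

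The study mapped chromatin occupancy by TRα1 in dissected brown adipose tissue. The mice were C57BL/6J males of 8 to 12 weeks. All animals carried TRα1 with a GS tag, a protein tag, in brown adipocytes only, had been made hypothyroid over 2 weeks by food with propylthiouracil, a blocker of thyroid hormone synthesis, and had then been injected with thyroid hormones over 24 h. Chromatin precipitated with an antibody, described in the labels as one used to immunoprecipitate TRα, gave 1 ChIP library, and the matching chromatin before precipitation gave 1 input library. Both libraries therefore shared the tag, the drug and the hormone, there was no replicate, and hypothyroid mice without hormone were not analysed here. A list of sites holds no expression value, so neither the level of these genes nor their hormone response was measured, and the cell types in the dissected tissue were not checked.

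Thyroid hormone acts through TR, a nuclear receptor that sits on DNA together with its partner RXR, often at a DR4 element, which is a direct repeat of the AGGTCA half-site with a spacer of 4 bp. Brown fat burns lipid to make heat, a programme that thyroid hormone and sympathetic nerves drive together, and it also releases hormones and growth factors that act on its own vessels and nerves and on other organs. Adiponectin, leptin, resistin and adipsin are classical products of fat cells, of which leptin and resistin are best known from white fat.

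Within 30 kb of the TSS, 6 of the 10 genes had a TRBS, against 16.7% of all protein-coding genes. Those were Adipoq, Lep, Cfd, Vegfa, Bmp8b and Gdf15, and together they had 8 TRBS. Out to 100 kb, 9 of the 10 genes had at least 1 TRBS, against 38.3% of all genes, and the number of TRBS rose to 25. Retn had none within that distance. Since 1 ChIP library was compared with 1 input library, these counts describe this list and were not tested.

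The strongest sites were at Vegfa and Lep, and their sequences are given first. Vegfa, the gene of the vascular growth factor VEGF-A, had its strongest TRBS beyond the 3′ end of the gene, and the TRBS of Lep, the gene of the satiety hormone leptin, was at its promoter. Positions are on GRCm38. The stretch of the Vegfa TRBS around its summit is written along the gene, with capitals for 3 half-sites that form 2 overlapping DR4 elements. The Lep stretch ends at the base before the TSS, and its capitals mark an EBF motif beside the summit and a C/EBP motif near the TSS, named after families of transcription factors that act in adipocyte differentiation.
Vegfa, 21896 bp downstream of the TSS (chr17:46010398-46010548, minus strand): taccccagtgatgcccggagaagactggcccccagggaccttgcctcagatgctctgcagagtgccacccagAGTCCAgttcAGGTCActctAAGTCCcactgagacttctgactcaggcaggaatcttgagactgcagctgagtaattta
Lep, promoter (chr6:29059921-29060219, plus strand): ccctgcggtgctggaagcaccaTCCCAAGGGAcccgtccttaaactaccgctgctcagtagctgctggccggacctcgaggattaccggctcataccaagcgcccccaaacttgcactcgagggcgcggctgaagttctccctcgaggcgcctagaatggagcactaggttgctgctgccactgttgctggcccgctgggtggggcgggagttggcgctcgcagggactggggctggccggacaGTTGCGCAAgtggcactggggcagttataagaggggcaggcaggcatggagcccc

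The remaining TRBS with a DR4 were compared in windows of 30 bases, with capitals for the half-sites of the element with the fewest mismatches to the consensus. They are shown so that the half-sites can be read against the consensus.
Igf1, 62431 bp upstream (chr10:87795824-87795853, minus strand): cagtagaAGGTCAggtaAGGTAAggtctgt
Lep, 76542 bp downstream (chr6:29136745-29136774, plus strand): gttctagGGATCAactcAGGTCAactaggc
Fgf21, 92368 bp upstream (chr7:45707841-45707870, minus strand): taagcccGGGTCAgccgAGGACAccagttc
Vegfa, 33818 bp downstream (chr17:45998570-45998599, plus strand): agttaagAGTGCAaacaAGGTCAccaaggt
Bmp8b, 1755 bp downstream (chr4:123107256-123107285, plus strand): tcctagtAGATCActagAGGTGAcaaatgg
Nrg4, 77552 bp upstream (chr9:55404392-55404421, plus strand): tggtgctTGGTCAtacaGGGTCAgcaagtt
Nrg4, 43160 bp downstream (chr9:55283639-55283668, plus strand): gtgggcgAGGTCAaggcAGACCAaggtgtg
Cfd, 36461 bp downstream (chr10:79927459-79927488, plus strand): gggagagAGGCCAccggAGGCCAccagcag
Gdf15, 61590 bp downstream (chr8:70570892-70570921, plus strand): ggcagccAGGTCAtatgGGGACAaccactt
Only the Igf1 element, among the 10 TRBS with a DR4, came within 1 mismatch of the consensus over the 12 half-site bases, and the best element of each other TRBS had 2.

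**Figure D1:**
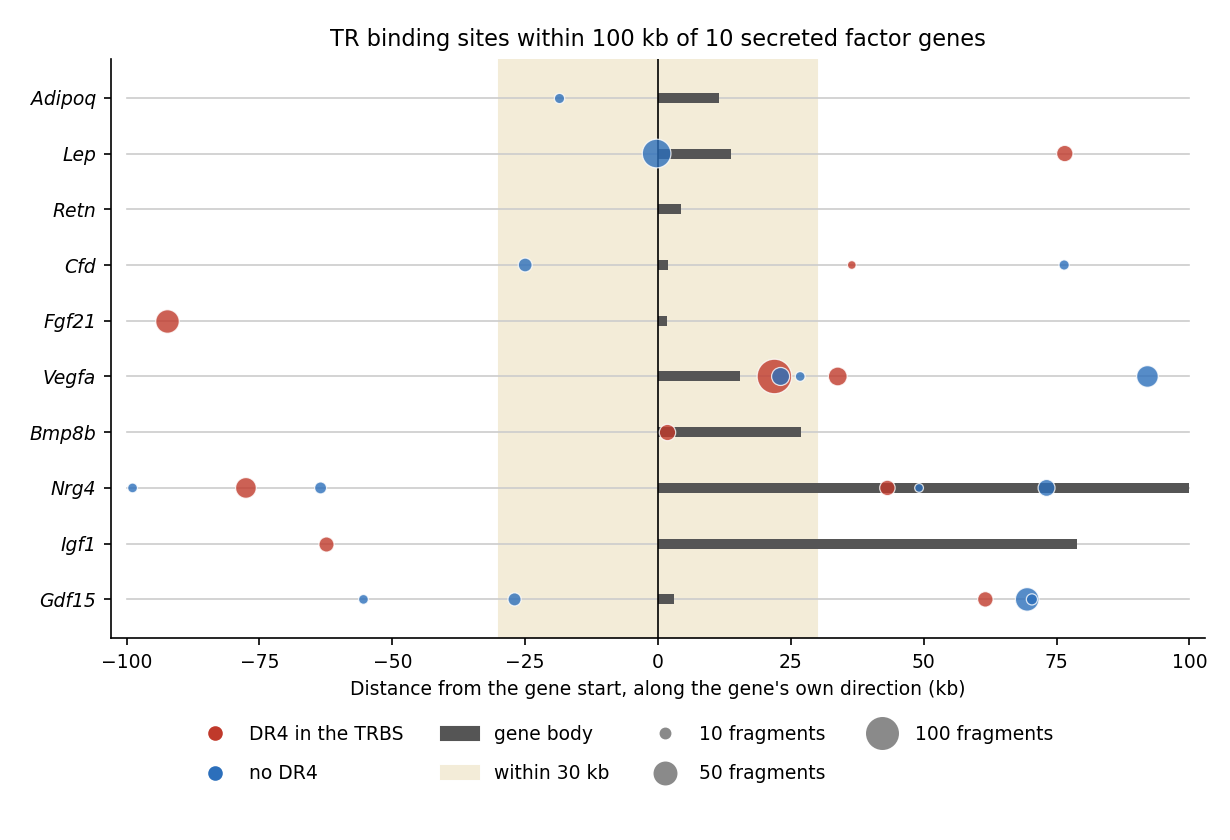
TRBS within 100 kb of the 10 genes, drawn to scale along the direction of each gene (x axis, kb from the TSS, negative upstream), with the gene body as a dark bar (that of Nrg4 runs on past 100 kb), the area of a circle proportional to its ChIP fragments and red for TRBS with a DR4. Lep had 86 fragments at its promoter, Vegfa had 5 TRBS that all lay beyond its 3′ end, and Retn had none.

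Counted from the TSS of the gene records, Vegfa had the most TRBS within 30 kb, and the strongest of all 25. The gene lies on the minus strand of chromosome 17 (46016993 to 46032369), and its TRBS at chr17:46010165-46011079 had 125 ChIP fragments at the summit, with an exact 95% Poisson interval of 104 to 149. The input background there was 0.924 fragments on the scale of the ChIP library, and the deposited fold was 65.5. Of all TRBS, 99.2% had fewer fragments. Intervals of fragments cover counting error only, since there was 1 ChIP library. No molecular identifiers are named that would mark independent molecules, so even that error may be understated.

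A further pair of Vegfa sites lay close by. The TRBS 23060 bp downstream of the TSS had 34 fragments (23.5 to 47.5) over a background of 0.504, and that at 26750 bp had 10 fragments (4.80 to 18.4) over 0.430. Just outside the limit, the TRBS at 33818 bp had 37 fragments (26.1 to 51.0) over 0.609. Their intervals lay far below that of the strongest site, and the interval of the 10-fragment site did not reach those of the 34- and 37-fragment sites. Neighbouring summits were 1164, 3690 and 7068 bp apart, and the last site followed 58278 bp further on, 92096 bp from the TSS, with 49 fragments (36.3 to 64.8) over 1.22.

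All 5 Vegfa TRBS were intergenic, and Vegfa had the nearest protein-coding TSS to each. The strongest lay 6520 bp past the 3′ end of the gene. Distances were shorter from inner starts of Vegfa. A RefSeq TSS at 46025163 had its nearest TRBS at 14690 bp, 4 within 30 kb and 6 within 100 kb. The GENCODE transcript start nearest to the strongest site was 10899 bp away, and the nearest of a protein-coding transcript was 20883 bp away. Having 3 or more TRBS within 30 kb was shared by 1.75% of protein-coding genes, and from the TSS of the gene record, the outermost one, it held for Vegfa among the 10. Nrg4 also reached 3 from its RefSeq TSS, described with that gene, whereas the 1.75% was counted from gene-record TSS only. Parts of the strongest TRBS had 34 other alignments at 90% identity or more, yet none of them covered its summit. On the assembled chromosomes no other alignment covered the summit of any of the 25 TRBS. The Gdf15 site at 55435 bp upstream had a mapping quality of 0, against 60 for the others, and its 355 bp also aligned to a fix patch of chromosome 8 in the reference.

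Lep had the second strongest TRBS, 269 bp upstream of its TSS at chr6:29059641-29060262. It had 86 fragments (68.8 to 106) over a background of 0.430, the lowest background in the list, and a fold of 60.8. The number of fragments was lower at 97.7% of all TRBS. Measured from the TSS of the gene record, 1 of the 10 genes, Lep, had a TRBS within 1 kb, against 3.02% of protein-coding genes, and Nrg4 joined it when any transcript start was allowed. No other protein-coding TSS lay within 30 kb of that summit.

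No DR4 and no exact half-site were found in the Lep promoter TRBS. The centre of its EBF motif, printed above, was 3.50 bp from the summit, and that of the exact C/EBP motif was 51.0 bp upstream of the TSS. A more distant TRBS, 76542 bp downstream of the Lep TSS in an intron of Rbm28, had 28 fragments (18.6 to 40.5) over 0.913. That site, unlike the one at the promoter, held a DR4, with its centre 2.50 bp from the summit, and the nearest protein-coding TSS was that of Rbm28.

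Bmp8b encodes a BMP family ligand that raises thermogenic output of brown fat, and it was the third gene with a TRBS nearest to its own TSS within 30 kb. The TRBS lay in an intron, 1755 bp downstream of the TSS at chr4:123106674-123107424, with 28 fragments (18.6 to 40.5) over 0.672 and a fold of 17.3. Its DR4 was 350 bp from the summit. Lep, Vegfa and Bmp8b thus made 3 of 10 genes that were the nearest TSS to a TRBS within 30 kb, against 9.87% of all protein-coding genes.

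Adipoq, Cfd and Gdf15 had weaker TRBS within 30 kb, and each of these lay nearer to the TSS of another gene. Adipoq encodes adiponectin, a hormone that raises insulin sensitivity. Its site, 18653 bp upstream, had 11 fragments (5.49 to 19.7) over a background of 1.52, and its fold of 4.76 was the lowest of the 25. It was 146 bp from the TSS of Rfc4, which encodes a subunit of replication factor C, and its score of 39 was under 60, the minimum in the study's methods. The same was true of 2 other sites, at Cfd (36461 bp downstream) and at Nrg4 (49119 bp downstream), which both had a score of 48.

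Cfd encodes adipsin, the complement factor D protease. Its nearest TRBS was 25000 bp upstream, in a coding exon of Plppr3 with the TSS of Prtn3 nearest to it, and had 20 fragments (12.2 to 30.9) over 0.430. The gene lies in a dense stretch of chromosome 10, with 6 other protein-coding TSS within 30 kb. A TRBS at 36461 bp downstream, 271 bp from the TSS of Arid3a, had 8 fragments (3.45 to 15.8), and 1 at 76420 bp, in an exon of Wdr18 with Grin3b as the nearest TSS, had 11 (5.49 to 19.7). The intervals of all 3 Cfd sites overlapped.

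Gdf15 encodes a stress hormone that acts on the hindbrain through GFRAL. The TRBS 27001 bp upstream of its TSS had 18 fragments (10.7 to 28.4) over 1.26 and a fold of 8.41, and it was in an intron of Pgpep1, 931 bp from the TSS of that gene. A further 4 TRBS lay between 30 and 100 kb. The nearest of them, 55435 bp upstream with Jund as the nearest TSS, had 10 fragments (4.80 to 18.4). The strongest, 69460 bp downstream in an intron of Ell, had 58 fragments (44.0 to 75.0) over 0.731, and its interval lay above that of the site within 30 kb. The other two were also in Ell introns and had 25 and 13 fragments.

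**Figure D2:**
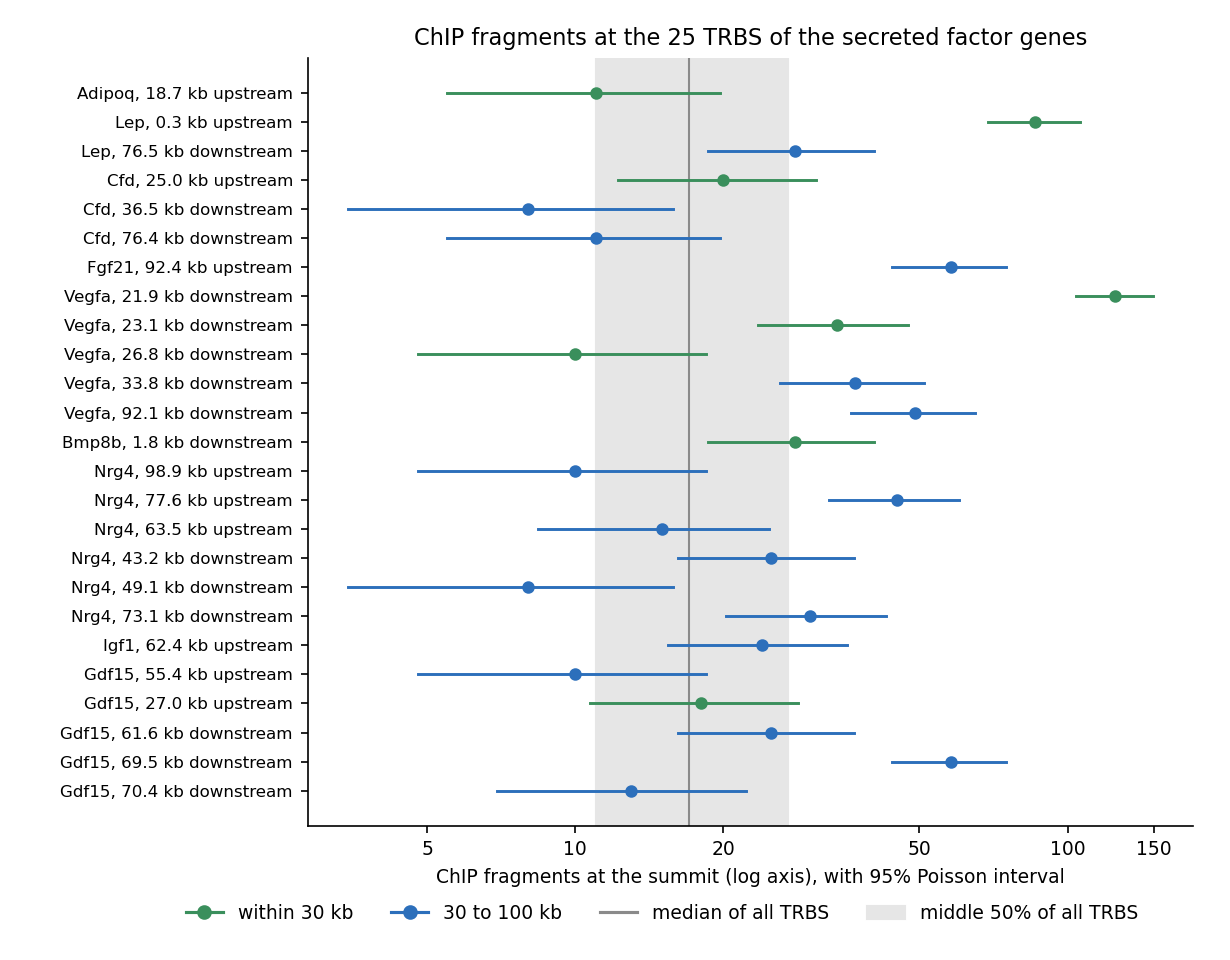
ChIP fragments at the summit of each of the 25 TRBS (points, log axis) with 95% Poisson intervals (lines), in green within 30 kb and in blue from 30 to 100 kb, ordered by gene and by position along it. The grey line is the median of all TRBS, 17 fragments, and the grey band spans their quartiles, 11 and 27. Vegfa (125) and Lep (86) stood apart from the other sites within 30 kb, whose highest count was 34.

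From the TSS of their gene records, Fgf21, Nrg4 and Igf1 had TRBS between 30 and 100 kb and none nearer, which for Nrg4 changed with the TSS taken. Fgf21 encodes a hormone of energy balance that brown fat and liver release, and its only TRBS was 92368 bp upstream at chr7:45707436-45708227. That site had 58 fragments (44.0 to 75.0) over 0.706, a fold of 34.6 and a DR4 2.50 bp from the summit. It lay in an exon of Dbp, a gene of the circadian clock output, 2770 bp from the Dbp TSS, and 8 protein-coding TSS lay within 30 kb of it.

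Igf1 encodes insulin-like growth factor 1. It had 1 TRBS, 62431 bp upstream at chr10:87795542-87796215, which was intergenic and had Igf1 as its nearest protein-coding TSS. The site had 24 fragments (15.4 to 35.7) over 0.913 and a fold of 13.1. The element printed above was centred 4.50 bp from the summit, and a second DR4 with 2 mismatches overlapped it.

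Nrg4 encodes neuregulin 4, an ErbB ligand rich in brown fat, and it had 6 TRBS within 100 kb of the TSS of its gene record. The gene spans 106623 bp of the minus strand of chromosome 9, and the position of its sites depended on the TSS taken. From the outermost TSS of the gene record, at 55326844, the nearest TRBS was 43160 bp downstream, inside the gene. Measured from the TSS of RefSeq, at 55283625, the same site was 59 bp upstream, and 3 TRBS lay within 30 kb, with no more out to 100 kb.

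The Nrg4 site beside the inner TSS had 25 fragments (16.2 to 36.9) over a background of 1.52 and a fold of 10.3. The stretch of 134 bases just upstream of that TSS is shown because it carries the summit, and capitals mark the half-sites of its DR4 and a further exact half-site.
Nrg4, inner TSS (chr9:55283626-55283759, plus strand): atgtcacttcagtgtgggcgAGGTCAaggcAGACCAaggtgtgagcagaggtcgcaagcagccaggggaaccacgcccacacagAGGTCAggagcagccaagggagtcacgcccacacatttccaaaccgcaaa
With 45 fragments (32.8 to 60.2) over 1.01, the strongest Nrg4 site lay 77552 bp upstream in an intron of Tmem266, and its DR4 was 10.5 bp from the summit. The other 4 had 8 to 30 fragments. When any annotated transcript start was allowed, 7 of the 10 genes had a site within 30 kb, against 19.6% of protein-coding genes, and 2 had 1 within 1 kb, against 4.29%. Nrg4 was the gene added in both counts.

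Retn, the gene of resistin, is on chromosome 8, and the TRBS nearest to it was 187916 bp upstream, with 19 fragments and Pex11g as the nearest TSS. At the limits themselves, counted from the TSS of the gene records, the last TRBS within 30 kb was that of Gdf15 at 27001 bp. The next was that of Vegfa at 33818 bp. The last within 100 kb was an Nrg4 site at 98887 bp with 10 fragments, and the next was a Vegfa site at 106272 bp with 13.

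**Figure D3:**
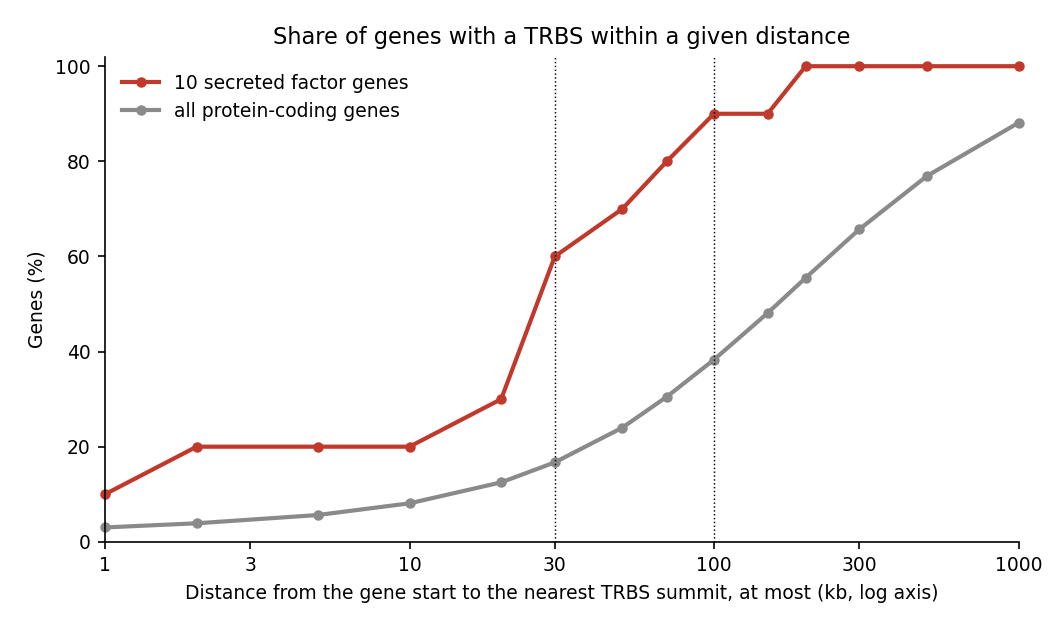
Share of genes (y axis, %) whose nearest TRBS summit lay within a given distance of the TSS (x axis, kb, log scale), for the 10 genes in red and all 21938 protein-coding genes in grey, at the distances marked by points. The red line rose from 30% at 20 kb to 60% at 30 kb, where the grey line was at 16.7%, and dotted lines mark 30 and 100 kb.

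The median distance from the TSS to the nearest TRBS was 26000 bp over the 10 genes and 161648 bp over all protein-coding genes. The sites near the 10 genes had a median of 25.0 fragments, and the lowest had 8.00. Over all TRBS the median was 17, and 11 of the 25 sites reached their upper quartile of 27. The median background was 0.672 in both sets. Of the 25 TRBS, 10 lay upstream and 15 downstream of the TSS. By region, 13 were in introns, 7 were intergenic, 2 were in the promoters of Lep and Rfc4, and the rest were in exons. In 15 of 25 cases the nearest protein-coding TSS was that of a gene other than the one described, and within 30 kb this held for 3 of 8. Side, region and nearest gene were not counted over all TRBS, so these counts describe the 25 sites only.

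Allowing 2 mismatches, 10 of the 25 TRBS and 2 of the 8 within 30 kb held a DR4, against 32.0% of all TRBS. The 2 were the strongest Vegfa site and the Bmp8b site. The Wilson interval of the 40.0% within 100 kb ran from 23.4% to 59.3%, and that of the 25.0% within 30 kb from 7.15% to 59.1%, so neither share could be set apart from that of all TRBS at this number of sites. The best element was within 50 bp of the summit in 8 of the 10. A DR4 within 100 bp of the summit was in 8 of the 25, against 27.5% of all TRBS. In the 2 exceptions, at Bmp8b and at Cfd, it was 350 and 160 bp away.

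**Figure D4:**
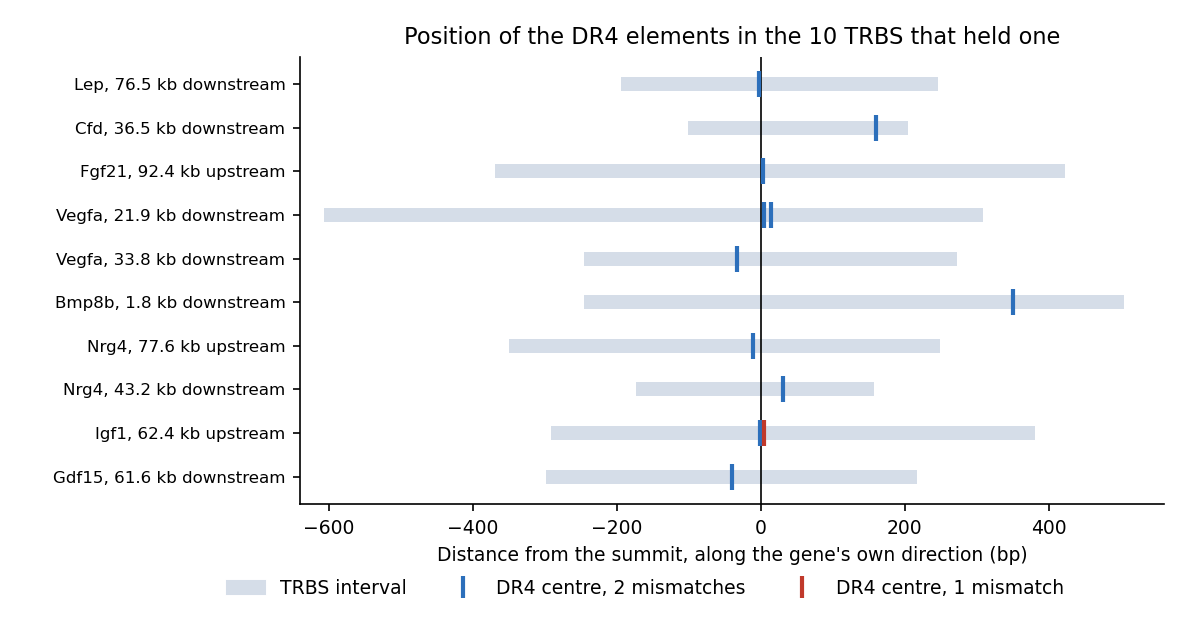
Centres of the DR4 elements (vertical ticks, red for 1 mismatch and blue for 2) relative to the summit (x axis, bp, along the direction of the gene) in the 10 TRBS that held one, with each TRBS interval as a pale bar. Elements lay within 50 bp of the summit except in the Cfd and Bmp8b sites.

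Other motifs were searched on both strands as letters, and their shares are descriptions of sequence only. An exact AGGTCA half-site, which also counts inside a DR4, was in 14 of the 25 TRBS and in 56.0% of all TRBS. Windows of the same width beyond the TRBS held it in 27.6%, and 16.3% of RefSeq promoters of 300 bases did. For DR4 itself these background shares were 5.44% and 3.02%. The EBF motif TCCCNNGGGA, without mismatches, occurred in 1 of the 25, the Lep promoter site. It was in 4.54% of all TRBS, 1.29% of flanking windows and 0.904% of promoters.

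The C/EBP motif, with at most 1 mismatch, was in 5 of the 25 TRBS and in 16.1% of all TRBS, against 7.33% of flanking windows. Those 5 were the Lep promoter, the Bmp8b site, the upstream Nrg4 site at 77552 bp and the Vegfa sites at 23060 and 92096 bp. A direct repeat with a spacer of 1 bp (DR1), the arrangement that PPARγ with RXR prefers, with at most 2 mismatches was in 3 of the 25, against 14.9% of all TRBS. An NF1 motif with at most 1 mismatch, found in 2.94% of all TRBS, was in none of the 25.

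Genes around the 10 factors were described from 3 lists. Among 30 other factors secreted by fat, 8 had a TRBS within 30 kb. Of 21 receptors and coreceptors of the 10 factors, 8 had 1. Of 17 partners, whose proteins bind or process the factors or act in the same pathways, 6 had 1. As shares these were 26.7% (Wilson interval 14.2% to 44.4%), 38.1% (20.8% to 59.1%) and 35.3% (17.3% to 58.7%), beside 16.7% of all protein-coding genes and 60% (31.3% to 83.2%) of the 10. The intervals of the lists overlapped each other and that of the 10 genes.

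Among the other secreted factors, the strongest TRBS was 2719 bp upstream of Ptgds, which encodes the lipocalin-type prostaglandin D synthase. It had 100 fragments (81.4 to 122) and 2 DR4 elements, and 6 protein-coding TSS lay within 30 kb of it. Fgf2 followed with 36 fragments at 6137 bp downstream, Apln, the gene of the peptide hormone apelin, with 27 at 598 bp downstream, and Angptl4, an inhibitor of lipoprotein lipase, with 23 at 2040 bp downstream. Vegfb, a relative of Vegfa, had 21 at 10876 bp downstream, in a promoter of Plcb3.

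Receptors were led by Nrp1, the coreceptor neuropilin 1 of VEGF-A, with 77 fragments (60.8 to 96.2) at 977 bp upstream. Next came Klb, the β-Klotho coreceptor of FGF21, with 33 at 2629 bp downstream. Adipor2, an adiponectin receptor, had 28 at 1030 bp upstream and 20 at 6010 bp downstream, and Nrp2 had 25 at 22091 bp downstream. The ligand genes of these receptors differed in where their own sites lay. Those of VEGF-A and adiponectin had a TRBS within 30 kb, and that of FGF21 had its site at 92368 bp. The adiponectin site had a score of 39, under the study's minimum of 60, and lay 146 bp from the TSS of Rfc4.

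Of the partners, Igfbp4, a binding protein of IGF-1, had 48 fragments (35.4 to 63.6) at 3272 bp downstream and 21 at 19799 bp downstream. Pappa, which encodes a protease that cleaves IGFBP4, had 30 at 3107 bp downstream. Igfbp3, the gene of the main carrier of IGF-1 in blood, had 28 at 16277 bp upstream. C3, the central protein of the complement pathway in which adipsin acts, had 20 at 168 bp upstream.

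**Figure D5:**
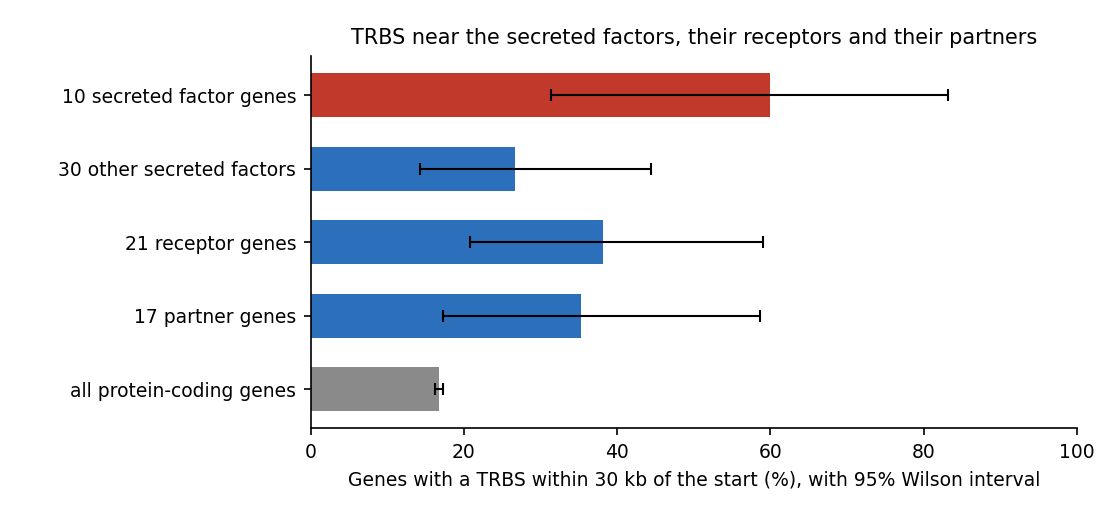
Share of genes with a TRBS summit at most 30 kb from the TSS (bars, x axis in %, from 0) with 95% Wilson intervals (lines), for the 10 genes, the 3 lists of related genes and all protein-coding genes. The 10 genes were at 60%, the lists between 26.7% and 38.1%, and all genes at 16.7%. The interval of the 10 genes overlapped those of the lists.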

How the data were processed

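ChIP-seq of TRα1 gave 1 ChIP library and 1 input library. Per the labels and the study's methods, the authors aligned paired-end reads to GRCm38 (mm10) with Bowtie (Bowtie2 2.3.2.2 in the submitters' processing notes) and called peaks with MACS (MACS2 2.1.1.20160309.6 there) in the ChIP library against the input. The score deposited by the authors is 10 times the −log10 q-value, rounded down. The fold deposited by the authors is the ratio of ChIP pileup to local input background at the summit, with a pseudocount of 1 added to both. The −log10 p-value deposited by the authors comes from a Poisson test of that pileup. The methods remove peaks with a score under 60, but the deposited list held 897 of them, and all 5107 peaks were kept.

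Read totals were not used here. ChIP fragments at each summit, a whole number, and the input background were solved from fold and −log10 p. To a tolerance of 0.0005 in −log10 p this succeeded for 5090 peaks (99.7%), with a single solution for all 25 TRBS near the 10 genes. The median TRBS had 17 fragments, and intervals are exact Poisson or, for shares, Wilson, at 95%. Genes came from GENCODE M21, with 1 TSS per gene record, promoters from 1000 bp upstream to 100 bp downstream, and the inner Nrg4 TSS and the 300-base promoters from RefSeq (GRCm38). Motifs were searched in the whole peak on both strands, and flanking windows lay 2 kb away. Copies of the sites were searched in the reference with minimap2 2.31, with patches and scaffolds kept apart from the assembled chromosomes. Scripts ran in Python 3.11.15 with SciPy 1.17.1, and recovery and motif search were tested on simulated data. All 10 genes were named, with every TRBS within 30 kb and, beyond it, the nearest and the strongest (all where there were 3 or fewer), and from each list the genes with the 5 strongest TRBS. The genes and lists were chosen with earlier results of these data known. No test was possible between 2 libraries, so counts were read beside those over all genes or TRBS.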

Additional observations from a re-analysis of the deposited data

How the results depend on the processing

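Across 42 alternatives, 32 values were within 1.5 times the reported one, and none had a direction to reverse. With a limit of 10 kb, 2 genes and 2 TRBS remained of the 6 and 8 within 30 kb (8.09% of all protein-coding genes), and 1 of those TRBS held a DR4. The number of TRBS with a DR4, 2 of 8 within 30 kb, became 5 of 12 with a limit of 50 kb and 4 of 12 from any transcript start. At most 1 mismatch left 0 of 8 (and 1 of 25 within 100 kb), 3 mismatches gave 4 of 8 (and 16 of 25), and a DR4 within 100 bp of the summit was in 1 of 8. Over all TRBS the shares under these 3 searches were 7.23%, 72.5% and 27.5%. With a score of at least 60 Adipoq lost its TRBS, and 5 genes with 7 TRBS were left within 30 kb, against 14.1% of all protein-coding genes. Out to 100 kb that minimum left 8 genes (33.6% of all) and 22 TRBS, 9 of them with a DR4. No paired analysis was possible because there was 1 pair of ChIP and input libraries and the result comes from no test. Depth limits the weak sites most, since 10 fragments allow 4.80 to 18.4.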
